A study of Mus musculus with 6 samples.

Results

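Mt1, Mt2, Hmox1, Srxn1, Nqo1, Gclm, Txnrd1, Gpx1, Gpx3 and Gpx4 are followed here through single cells of mouse kidney and mouse mammary tumor that were dissociated in different ways. The 10 genes were taken by their symbols in the feature lists of the series. All 10 of 10 were found among 31053 genes. They cover the antioxidant targets of the transcription factor Nrf2, the metallothioneins and the glutathione peroxidases.

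Nrf2 (gene Nfe2l2) is bound by Keap1 and degraded in resting cells, and oxidants or electrophiles release it. It then pairs with small Maf proteins at antioxidant response elements and drives genes for glutathione synthesis, thioredoxin reduction and quinone reduction. Bach1 occupies the same elements as a repressor, above all at Hmox1. Metallothioneins are small cysteine-rich proteins that bind zinc, copper and cadmium, and their genes are driven through metal response elements by MTF1 and also respond to glucocorticoids. Glutathione peroxidases reduce peroxides with glutathione. The proximal tubule of the kidney is the known source of the plasma form, Gpx3.

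Each tissue gave 3 droplet libraries, 1 per condition. The kidneys came from male C57BL/6 mice of 12 weeks, and the tumors from female MMTV-PyMT mice of 10 weeks, in which the mammary tumor virus promoter drives the polyoma middle T transgene. The control was minced tissue digested with collagenase for 60 min, and the platform was a set of microfluidic devices that digest minced tissue, break up its clumps and filter it, and from which cells were collected at intervals. Cells of the 15 min interval and of the 60 min interval came from the same tissue sample, and every library was treated to lyse red cells and sorted for viable cells. Sex comes from the study's methods and the rest from the labels. No test of a condition was possible with a single library for each. The only control of each tissue was digested for 60 min. At 15 min, therefore, digestion time, device and the early collection of cells cannot be told apart. The platform 60 min library holds cells released after the 15 min collection, so there the device and that earlier removal of cells cannot be told apart. According to the study's reporting summary, control and device conditions of a replicate used tissue of the same mouse. Every interval below is a 95% exact interval that covers counting error only, and the platform libraries of a tissue are both read against the same control library.

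After filters on genes and mitochondrial share, the kidney libraries held 5886 control, 8390 platform 15 min and 9936 platform 60 min cells, and the tumor libraries held 5736, 5802 and 6024 cells in that order. Their summed UMIs, the counts of distinct RNA molecules, ranged from 33644880 to 61434200. The kidney 15 min library stood apart, with 21.6% of its UMIs from mitochondrial genes against 12.1% in the control and 13.7% at 60 min, while the tumor libraries lay between 7.65% and 8.42%. Cell barcodes were shared between libraries of a tissue for 309 of 33701 kidney barcodes and 57 of 24470 tumor barcodes. Cells were assigned to classes by gates on 8 markers per class, none of them among the 10 genes, and a class is written as "macrophage-like" for this reason. The thresholds of the gates were set after the data had been seen. Each class had some of its own markers among its 10 leading genes, from 1 in kidney dendritic cell-like to 6 in B lymphocyte-like cells. The gate itself brings this about, so it is no check of identity. Proximal tubule-like cells numbered 3203 (control), 7260 (15 min) and 3147 (60 min), and kidney macrophage-like cells numbered 821, 125 and 1440.

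The stretches just before the start sites are shown for Mt2, Mt1, Srxn1 and Txnrd1, on which the 15 min results below turn, and for Gclm, a target that differed little, because they hold the letters of the elements named above. Each is 240 bases on the plus strand of GRCm38.p6 from RefSeq, 5′ to 3′. Capitals mark matches, on either strand, to TGCNCNC (the core of the metal response element), TGACNNNGC (the core of the antioxidant response element) or TGANTCAGC (a site for a CNC factor with a small Maf). For Txnrd1, the stretch shown is 1 of 3 start sites and the only one of them with a match to TGACNNNGC. Each of the others held 1 match to TGCNCNC and no other match.

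Mt2, chr8:94172368-94172607: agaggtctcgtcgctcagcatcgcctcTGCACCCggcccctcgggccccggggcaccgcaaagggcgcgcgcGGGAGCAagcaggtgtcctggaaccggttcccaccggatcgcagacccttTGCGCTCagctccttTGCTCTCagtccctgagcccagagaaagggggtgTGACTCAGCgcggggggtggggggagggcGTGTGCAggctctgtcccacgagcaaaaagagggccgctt

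Mt1, chr8:94178839-94179078: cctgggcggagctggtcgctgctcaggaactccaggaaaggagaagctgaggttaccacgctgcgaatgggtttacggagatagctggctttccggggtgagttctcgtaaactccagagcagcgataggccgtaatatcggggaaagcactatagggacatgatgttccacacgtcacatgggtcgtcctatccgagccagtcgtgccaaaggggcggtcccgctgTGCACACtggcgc

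Srxn1, chr2:152105274-152105513: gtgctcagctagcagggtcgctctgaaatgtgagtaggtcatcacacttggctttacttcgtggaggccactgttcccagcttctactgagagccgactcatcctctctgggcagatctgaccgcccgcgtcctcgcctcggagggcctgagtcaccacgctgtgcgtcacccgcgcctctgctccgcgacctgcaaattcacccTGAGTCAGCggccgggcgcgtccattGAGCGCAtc

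Txnrd1, chr10:82858956-82859195: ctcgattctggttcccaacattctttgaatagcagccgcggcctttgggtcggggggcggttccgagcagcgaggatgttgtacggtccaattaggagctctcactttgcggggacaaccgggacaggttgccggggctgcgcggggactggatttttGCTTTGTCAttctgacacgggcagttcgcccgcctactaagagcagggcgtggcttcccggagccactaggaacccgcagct

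Gclm, chr3:122245307-122245546: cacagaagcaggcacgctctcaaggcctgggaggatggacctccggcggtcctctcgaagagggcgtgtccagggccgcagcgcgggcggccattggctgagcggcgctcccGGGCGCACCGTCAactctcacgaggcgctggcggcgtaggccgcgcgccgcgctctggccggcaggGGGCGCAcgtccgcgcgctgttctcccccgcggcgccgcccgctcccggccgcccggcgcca

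The Mt2 stretch held 5 matches to TGCNCNC, at 223, 178, 128, 113 and 50 bases before the start. It also held tgactcagc at 79 bases, which matches TGACNNNGC and TGANTCAGC at once. The Mt1 stretch held 1 match to TGCNCNC, at 23 bases. The Srxn1 stretch held tgagtcagc at 45 bases, which matches TGANTCAGC, and a match to TGCNCNC at 19 bases. The Txnrd1 stretch held 1 match to TGACNNNGC at 92 bases, and the Gclm stretch held 1 at 134 bases beside matches to TGCNCNC at 138 and 72 bases. TGCNCNC is common, with a match in 42.9% of 32851 such windows in the table, while TGACNNNGC was in 9.67% and TGANTCAGC in 0.977%. The matches are letters, and no binding was measured here. Sequence outside the windows was not searched, so the number of matches describes a window and not the whole control region of a gene. Mt2 and Mt1 are neighbours on the plus strand of chromosome 8, with Mt2 at 94172664 to 94173568 and Mt1 at 94179082 to 94180327 (mm10), and 5514 bases lie between them. The other spans in the same build are Hmox1 at 75093621 to 75100589 and Nqo1 at 107388225 to 107403206 on chromosome 8, Srxn1 at 152105516 to 152111376 on chromosome 2 and Gclm at 122245557 to 122270732 on chromosome 3. Gpx1 lies at 108338903 to 108340343 on chromosome 9, Gpx4 at 80047166 to 80056439 and Txnrd1 at 82833951 to 82897712 on chromosome 10, and Gpx3 at 54902453 to 54910377 on chromosome 11. Of these only Nqo1 is on the minus strand. The Nqo1 window held 2 matches to TGCNCNC and neither of the other motifs, and the windows of Gpx1 and Gpx3 held no match to any of the 3. Gpx4 had several windows, of which some held 1 match to TGCNCNC and none held either of the other motifs.

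Levels are given as UMIs per 1000000 UMIs of the same cells (CPM). Over all kept cells, Mt2 and Hmox1 were lower past 2-fold in the platform 15 min library than in the control in both tissues. In that library Mt1 was lower past 2-fold in the kidney, and Srxn1 and Txnrd1 were in the tumor. A gene was called past 2-fold when it had at least 20 UMIs in both libraries together. In the kidney 3 of 10 genes were 2-fold or more lower at 15 min and 0 were higher, beside 28.5% lower and 2.23% higher of all 14632 genes kept. That count is near the background. In the tumor 4 of 10 genes were lower at 15 min and 0 were higher, beside 3.80% and 3.57% of 15588 genes. At 60 min the kidney had 0 genes of the 10 past 2-fold in either direction (10.5% of 15515 genes higher, 1.18% lower), and the tumor had 1 higher, Gpx3, and 0 lower (9.09% of 15719 genes higher, 2.72% lower). The median gene was shifted by -0.42 on the log2 scale in kidney at 15 min, 0.24 in kidney at 60 min, 0.21 in tumor at 15 min and 0.01 in tumor at 60 min, and the levels below are not corrected for these shifts. Divided by the median ratio, or per non-mitochondrial UMI, the kidney 15 min count became 1 higher, Gpx3, and 3 lower.

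**Figure D1:**
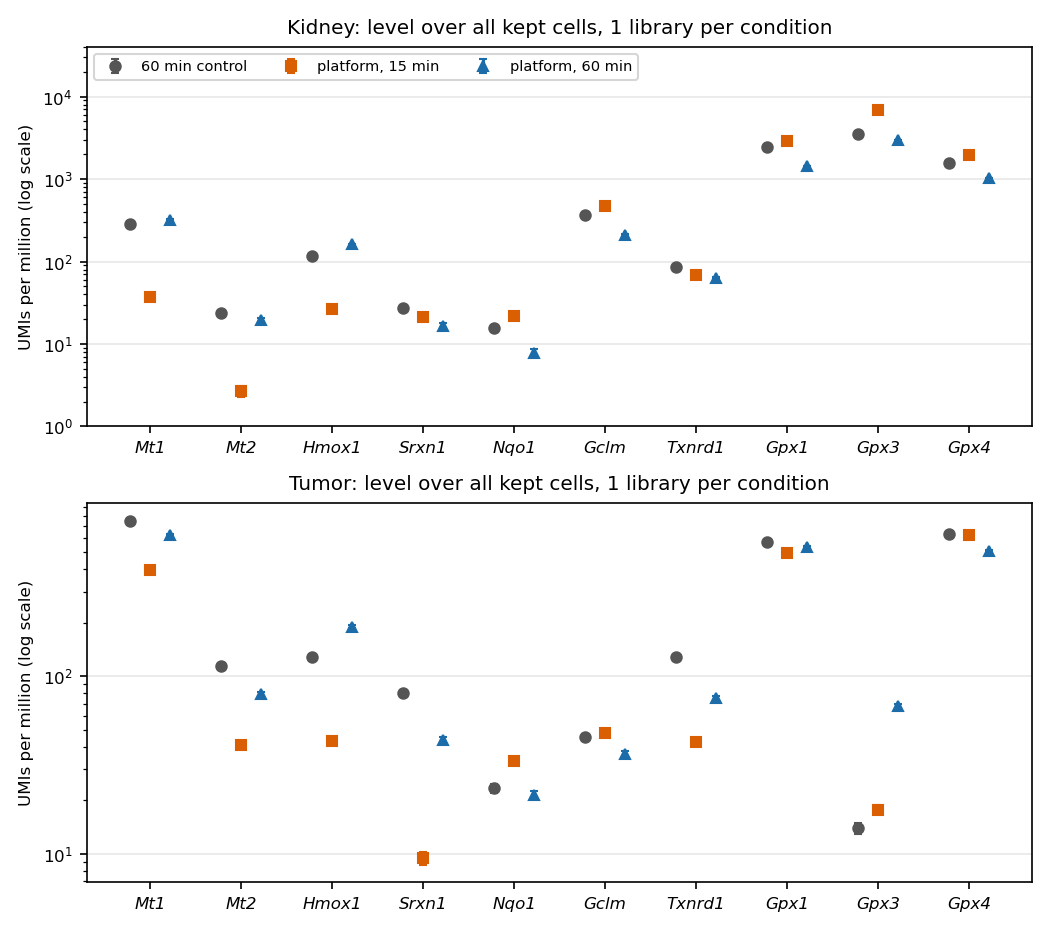
Level of each of the 10 genes over all kept cells in CPM (log scale), for kidney above and tumor below, with a circle for the control, a square for the platform at 15 min and a triangle for the platform at 60 min; bars are 95% counting intervals, often smaller than the symbols. Mt1, Mt2 and Hmox1 are lowest at 15 min in both tissues, and Srxn1 and Txnrd1 are lowest at 15 min in the tumor.

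Since the cell mix differed between libraries, the levels were also compared within each class that held 20 cells or more in the control and in the platform library. The kidney at 15 min gave 12 lower and 2 higher among 59 kept pairs of gene and class out of 80 (5.51% and 3.67% of all gene and class pairs), in 8 classes. The tumor at 15 min gave 15 lower and 0 higher among 49 kept of 60 pairs (4.10% and 6.33%), in 6 classes. At 60 min the kidney had 10 lower and 8 higher among 96 kept of 120 pairs (2.29% and 5.96%), and the tumor had 6 lower and 7 higher among 60 kept of 70 pairs (4.16% and 5.54%). The share of lower calls was above that of all pairs at 15 min and at 60 min in both tissues. At 60 min, but not at 15 min, the share of higher calls was also above that of all pairs in both tissues. Neither excess was tested, since the pairs share cells and libraries. In the tumor the 15 min calls lay in Mt1 (5 classes), Srxn1 (4), Mt2 (2), Hmox1 (2) and Txnrd1 (2). In the kidney they lay in Mt2 (5 classes), Mt1 (4), Hmox1 (1), Srxn1 (1) and Txnrd1 (1). The Mt2 call in kidney B lymphocyte-like cells rested on 1 control cell with 37 of 41 UMIs, and without it too few UMIs remained for a call. Gclm, Gpx1, Gpx3 and Gpx4 had no lower call among the kept pairs at 15 min. Nqo1 had none either, but only 1 of 8 kidney and 2 of 6 tumor classes had enough UMIs for it.

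**Figure D2:**
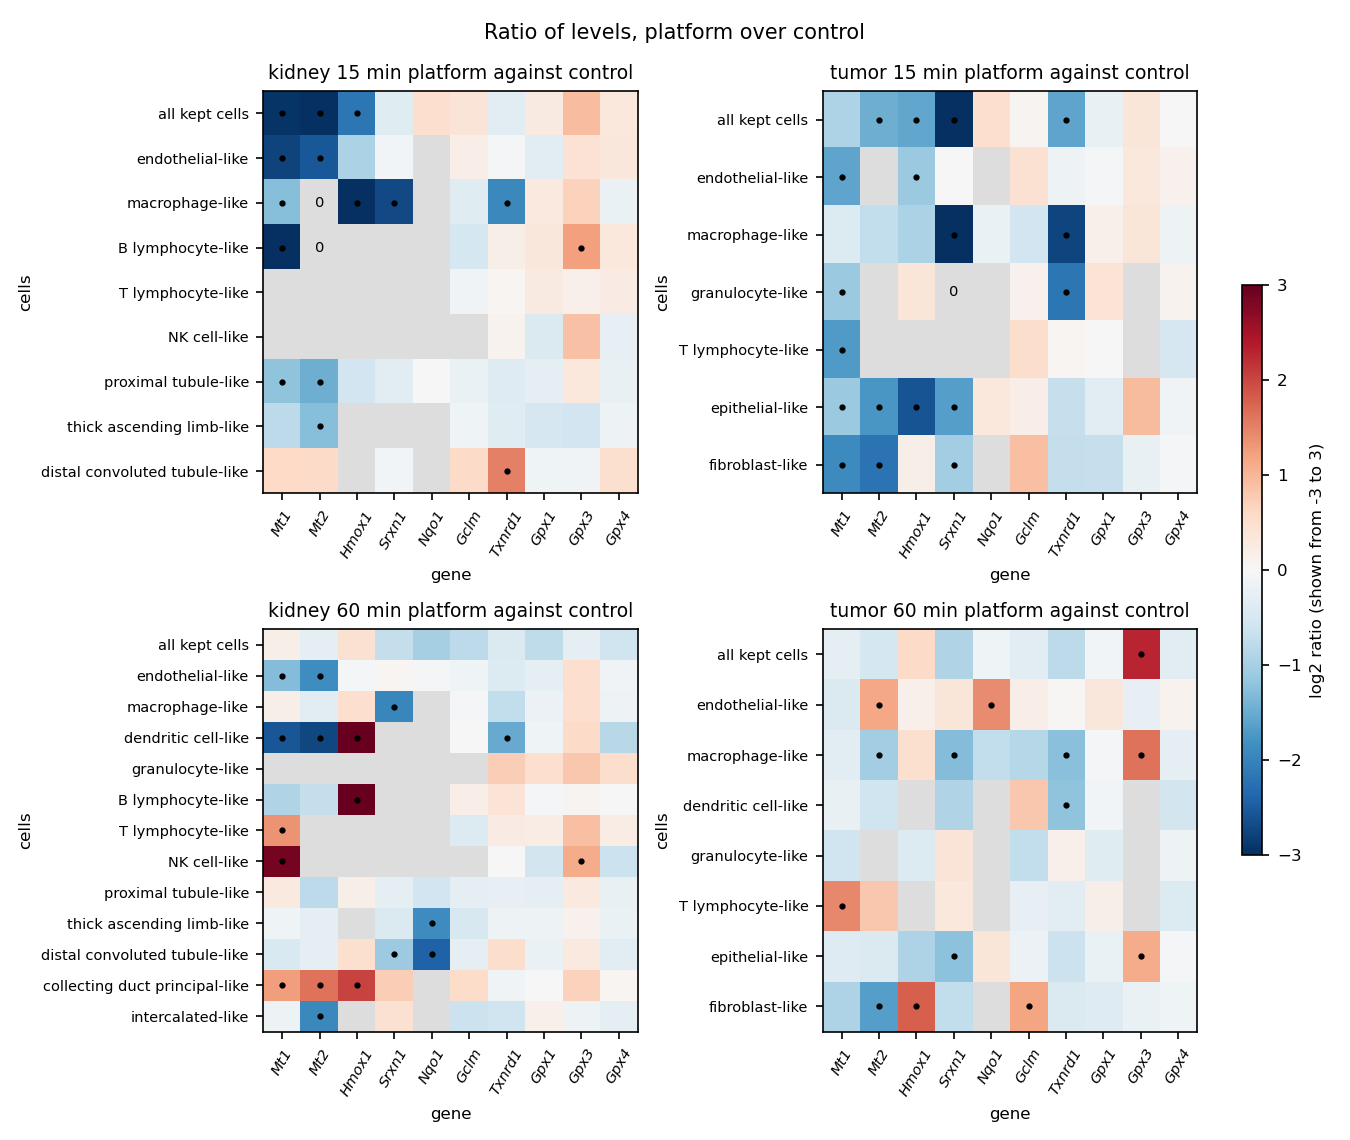
Log2 ratio of platform over control for each of the 10 genes (columns) in all kept cells and in each class (rows), for kidney on the left and tumor on the right, 15 min above and 60 min below. Dots mark calls past 2-fold, grey marks pairs under 20 UMIs, and a 0 marks pairs with no UMI on the platform; blue is lower on the platform. At 15 min the Mt1 and Mt2 pairs with enough UMIs are blue or carry a 0 except in distal convoluted tubule-like cells of the kidney.

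With the class mix of the control imposed on every library, over the 8 kidney or 6 tumor classes that held 20 cells or more in all 3 libraries, the kidney Mt1 ratio at 15 min moved from 7.65-fold lower to 2.10-fold lower, and Mt2 from 8.89-fold to 3.56-fold lower. Hmox1 stayed at 4.39-fold lower. In the tumor at 15 min, Srxn1 was 7.79-fold lower, Txnrd1 2.98-fold lower, Mt2 2.72-fold lower, Hmox1 2.32-fold lower and Mt1 1.75-fold lower under the same mix. The kidney values over all cells of Mt1 and Mt2 therefore moved with the shares of the classes, and the tumor values moved little. At 60 min the tumor Gpx3 ratio moved from 4.89-fold higher to 1.49-fold higher, and Srxn1 from 1.86-fold to 2.36-fold lower.

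**Figure D3:**
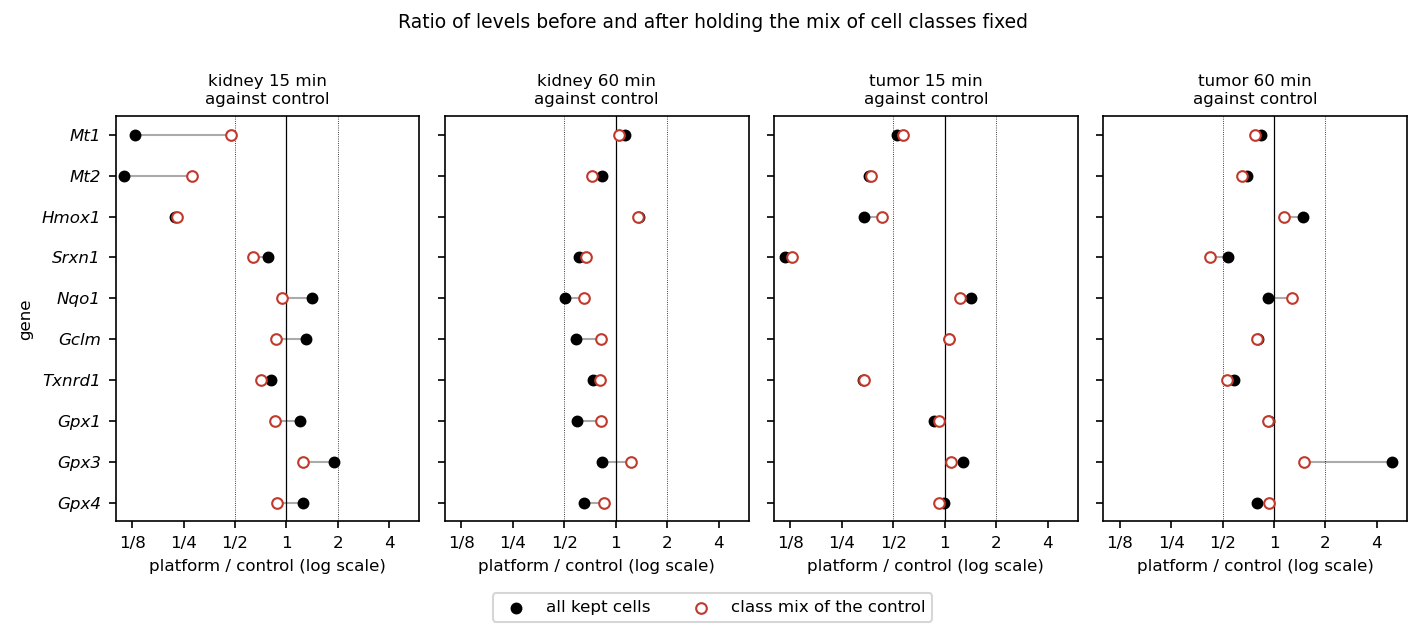
Ratio of platform over control (log scale) for each of the 10 genes over all kept cells (filled circles) and with the class mix of the control (open circles), in 4 panels for the 4 comparisons; dotted lines mark 2-fold. The longest lines between the circles are kidney Mt1 and Mt2 at 15 min and tumor Gpx3 at 60 min.

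The metallothioneins were 2-fold or more lower at 15 min in part of the classes of both tissues. Of the classes with enough UMIs, Mt1 was called lower in 4 of 6 in the kidney and 5 of 6 in the tumor, and Mt2 in 5 of 6 and 2 of 3. Mt1 in the kidney was at 285.9 CPM (control), 37.4 (15 min) and 322.3 (60 min), and Mt2 was at 23.6, 2.65 and 19.6. The 15 min library alone was low, 7.65-fold below the control for Mt1 (interval 7.31 to 8.01) and 8.89-fold for Mt2 (7.51 to 10.6). Kidney thick ascending limb-like cells had the highest Mt1 level of any control class, 2247 CPM, against 1310 and 2045 on the platform. Distal convoluted tubule-like cells stood at 1301, 1955 and 940.1, so that they alone among the classes with enough UMIs were higher at 15 min, though below 2-fold. These nephron segments reabsorb salt downstream of the proximal tubule, and the 15 min library held 70 and 24 of their cells. In proximal tubule-like cells, Mt1 was at 39.3 (control), 16.9 (15 min) and 48.2 (60 min), which is 2.32-fold lower at 15 min (2.11 to 2.55), in a class where 5.12% of all genes kept in that class were 2-fold or more lower. Mt2 there was 2.74-fold lower (1.94 to 3.88). The mitochondrial share of UMIs in these cells was 14.3%, 22.6% and 17.3%, and in the macrophage-like cells described below 6.64%, 11.02% and 8.27%. The ratios printed for both classes are per all UMIs and were not rescaled for these shares. The count per non-mitochondrial UMI over all kept kidney cells is given above.

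Kidney endothelial-like cells, which line the vessels, had lower metallothionein in both platform libraries. Their Mt1 level was 109.2 (control), 15.8 (15 min) and 44.4 (60 min). The ratios were 6.90-fold lower at 15 min (4.46 to 11.2) and 2.46-fold lower at 60 min (2.10 to 2.87), and Mt2 at 60 min was 3.61-fold lower (2.14 to 6.05). In kidney macrophage-like cells, the resident phagocytes, Mt1 was at 816.4, 337.2 and 928.8, so only the 15 min library was low, by 2.42-fold (2.12 to 2.78). Mt2 in these cells had 197 UMIs in the control and 0 at 15 min, at least 7.74-fold lower against a floor of 3 UMIs in the 15 min library. Some sums rested on few cells. In B lymphocyte-like cells of the kidney control, 1 cell held 260 of 280 Mt1 UMIs, and the level of 247.0 became 18.0 without it. Of the 31 dendritic cell-like cells of the control, 1 held 177 of 544 Mt1 UMIs, and the level of 1513 there stood against 255.4 in the 54 cells at 60 min. In collecting duct principal-like cells, Mt1 was higher at 60 min, 299.5 against 711.6, and 1 cell held 102 of the 361 UMIs there. The remaining kidney calls for these genes came from fewer UMIs. At 60 min Mt1 was higher in T lymphocyte-like cells (9 against 57 UMIs) and NK cell-like cells (1 against 19), and Mt2 was lower in intercalated-like cells (17 against 5) and higher in principal-like cells (7 against 34). At 15 min Mt2 was lower in thick ascending limb-like cells, by 2.41-fold (1.65 to 3.58).

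**Figure D4:**
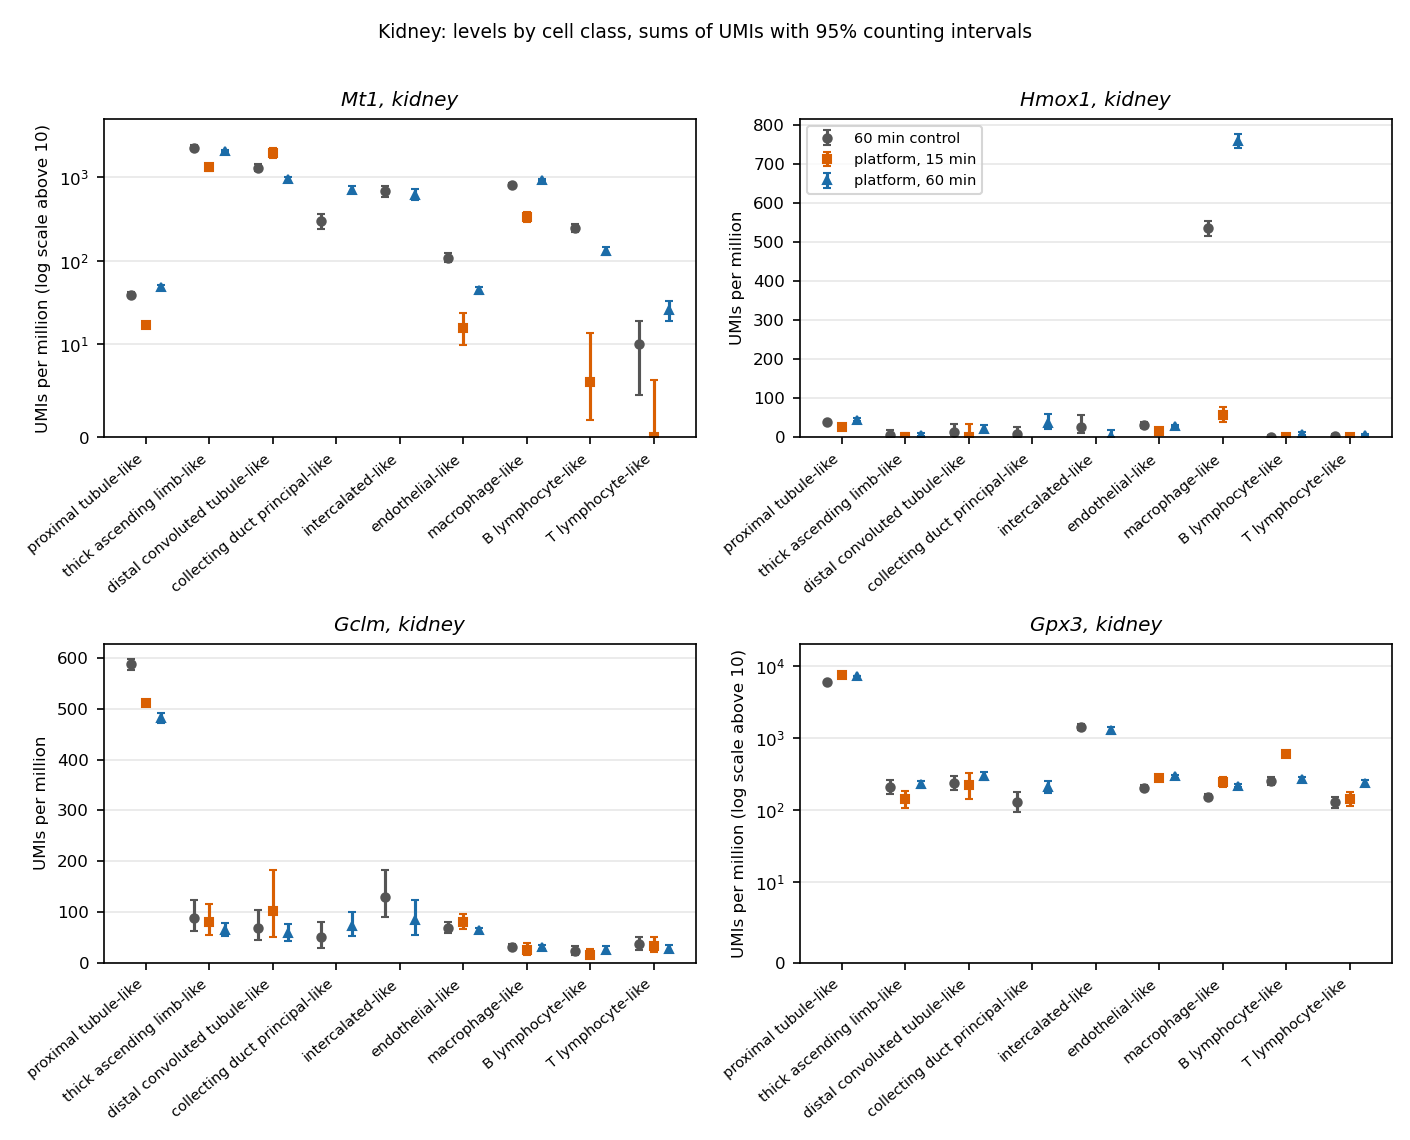
Levels of Mt1, Hmox1, Gclm and Gpx3 in CPM in kidney cell classes (a log scale above 10 for Mt1 and Gpx3), with 95% counting intervals; symbols are the control (circle), platform 15 min (square) and platform 60 min (triangle), shown where a library held at least 20 cells of the class. Hmox1 is high in macrophage-like cells except at 15 min, and Gclm and Gpx3 are highest in proximal tubule-like cells of all 3 libraries.

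In the tumor, Mt1 was at 749.5 (control), 395.4 (15 min) and 625.2 (60 min), and Mt2 at 114.0, 41.0 and 78.9. Both genes were lowest at 15 min, Mt2 by 2.78-fold (2.65 to 2.92) and Mt1 by 1.90-fold. Epithelial-like cells, which make up the carcinoma, had Mt1 at 644.4, 296.7 and 492.4 and Mt2 at 118.0, 35.3 and 87.7. Their 15 min ratios were 2.17-fold lower for Mt1 (2.12 to 2.22) and 3.34-fold lower for Mt2 (3.14 to 3.55), beside 3.28% of all genes of that class 2-fold or more lower. Fibroblast-like cells, the matrix-making stroma, had the highest Mt1 and Mt2 levels of the tumor control, 2406 and 1079, against 643.4 and 230.8 at 15 min. These values rest on 40 control, 72 platform 15 min and 304 platform 60 min cells. Their Mt2 level was lower at 60 min too, at 344.2, by 3.13-fold (2.80 to 3.50). Macrophage-like cells differed less, with Mt1 at 1270, 949.1 and 1024, and Mt2 2.07-fold lower at 60 min (1.91 to 2.25). Mt1 was also lower at 15 min in endothelial-like (51 against 19 UMIs), T lymphocyte-like (66 against 12) and granulocyte-like cells (46 against 8). At 60 min the T lymphocyte-like level was 2.71-fold higher, with 61 of the 133 UMIs in 1 cell, and endothelial-like Mt2 was higher on 11 against 92 UMIs.

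Hmox1, the haem oxygenase that breaks haem down to biliverdin, iron and carbon monoxide, was lower at 15 min over all cells of both tissues and in macrophage-like cells. Over all kept kidney cells its level was 118.3 (control), 26.3 (15 min) and 161.9 (60 min). Kidney macrophage-like cells had 535.1, 56.0 and 758.0, from 3001, 37 and 6705 UMIs. The 15 min level was 9.56-fold below the control (6.92 to 13.6), a class in which 7.44% of all genes kept were 2-fold or more lower, and the 60 min level was above the control. Over the erythroid list of 5 genes, haemoglobins and Alas2, macrophage-like cells summed to 1.96 CPM (control), 7156 (15 min) and 1273 (60 min), and 1 cell of the 125 held 4731 of the 4732 UMIs at 15 min. Whether these bear on Hmox1 was not tested. Proximal tubule-like cells had 40.1, 26.8 and 45.4, a smaller difference in the same order. At 60 min Hmox1 passed 2-fold higher in 3 kidney classes with few UMIs, the dendritic cell-like (1 against 28), B lymphocyte-like (1 against 20) and principal-like cells (3 against 19). In the last, 1 cell held 13 of the 19 UMIs, and without it the level of 37.5 became 12.0 and too few UMIs remained for a call.

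In the tumor, Hmox1 was at 127.9 (control), 43.2 (15 min) and 190.1 (60 min). The 15 min library was 2.96-fold lower (2.82 to 3.105), and the 60 min library was 1.49-fold higher. Macrophage-like cells had 365.1, 188.3 and 510.8, so the 15 min difference there stayed below 2-fold. Granulocyte-like cells had 151.9, 196.0 and 114.3, with the 15 min level above the control and near that of macrophage-like cells. The larger 15 min difference was in epithelial-like cells, at 55.7, 9.24 and 29.3, which is 6.03-fold lower at 15 min (5.38 to 6.76). Endothelial-like cells were 2.18-fold lower at 15 min (1.57 to 3.06). In fibroblast-like cells Hmox1 was higher at 60 min, 147.5 against 42.3 in the control, by 3.49-fold (2.16 to 6.05), with 17 UMIs behind the control value.

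Srxn1, the sulfiredoxin that restores over-oxidised peroxiredoxins, and Txnrd1, the cytosolic thioredoxin reductase, were the genes of the 10 with the largest 15 min differences in tumor macrophage-like cells. Over all kept tumor cells, Srxn1 was at 80.8 (control), 9.41 (15 min) and 43.5 (60 min), and Txnrd1 at 128.8, 42.7 and 75.3. Both were lowest at 15 min and between the other two at 60 min. The 15 min ratios were 8.58-fold lower for Srxn1 (7.83 to 9.43) and 3.02-fold lower for Txnrd1 (2.88 to 3.16). In macrophage-like cells Srxn1 was at 284.5, 26.2 and 116.1, and Txnrd1 at 319.3, 47.2 and 133.6. The 15 min ratios there were 10.9-fold (9.56 to 12.4) and 6.76-fold lower (6.13 to 7.47), where 4.69% of all genes kept in the class were 2-fold or more lower, and the 60 min ratios were 2.45-fold and 2.39-fold lower. These cells numbered 1011, 997 and 1500, and the cell with the most Srxn1 held at most 5.18% of the Srxn1 UMIs of a library.

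Granulocyte-like cells of the tumor, the short-lived phagocytes, had Txnrd1 at 313.6 (control), 69.7 (15 min) and 350.0 (60 min), and Srxn1 with 33, 0 and 10 UMIs. Srxn1 was at least 4.17-fold lower at 15 min, against the floor of 3 UMIs, and in this class 10.0% of all genes kept were lower. The 60 min levels of both genes, from 62 cells, were above the control with overlapping intervals. Txnrd1 in dendritic cell-like cells was 2.32-fold lower at 60 min (1.64 to 3.28). In epithelial-like cells Srxn1 was at 17.8, 5.71 and 7.63, 3.12-fold lower at 15 min (2.67 to 3.66) and 2.33-fold lower at 60 min (1.98 to 2.77), and Txnrd1 stood at 64.5, 40.1 and 41.4. The fibroblast-like call for Srxn1 at 15 min rested on 15 and 11 UMIs, and its interval of 0.888 to 4.98 spans 1. T lymphocyte-like and endothelial-like cells had Srxn1 levels from 3.02 to 7.36 CPM over the 3 libraries.

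**Figure D5:**
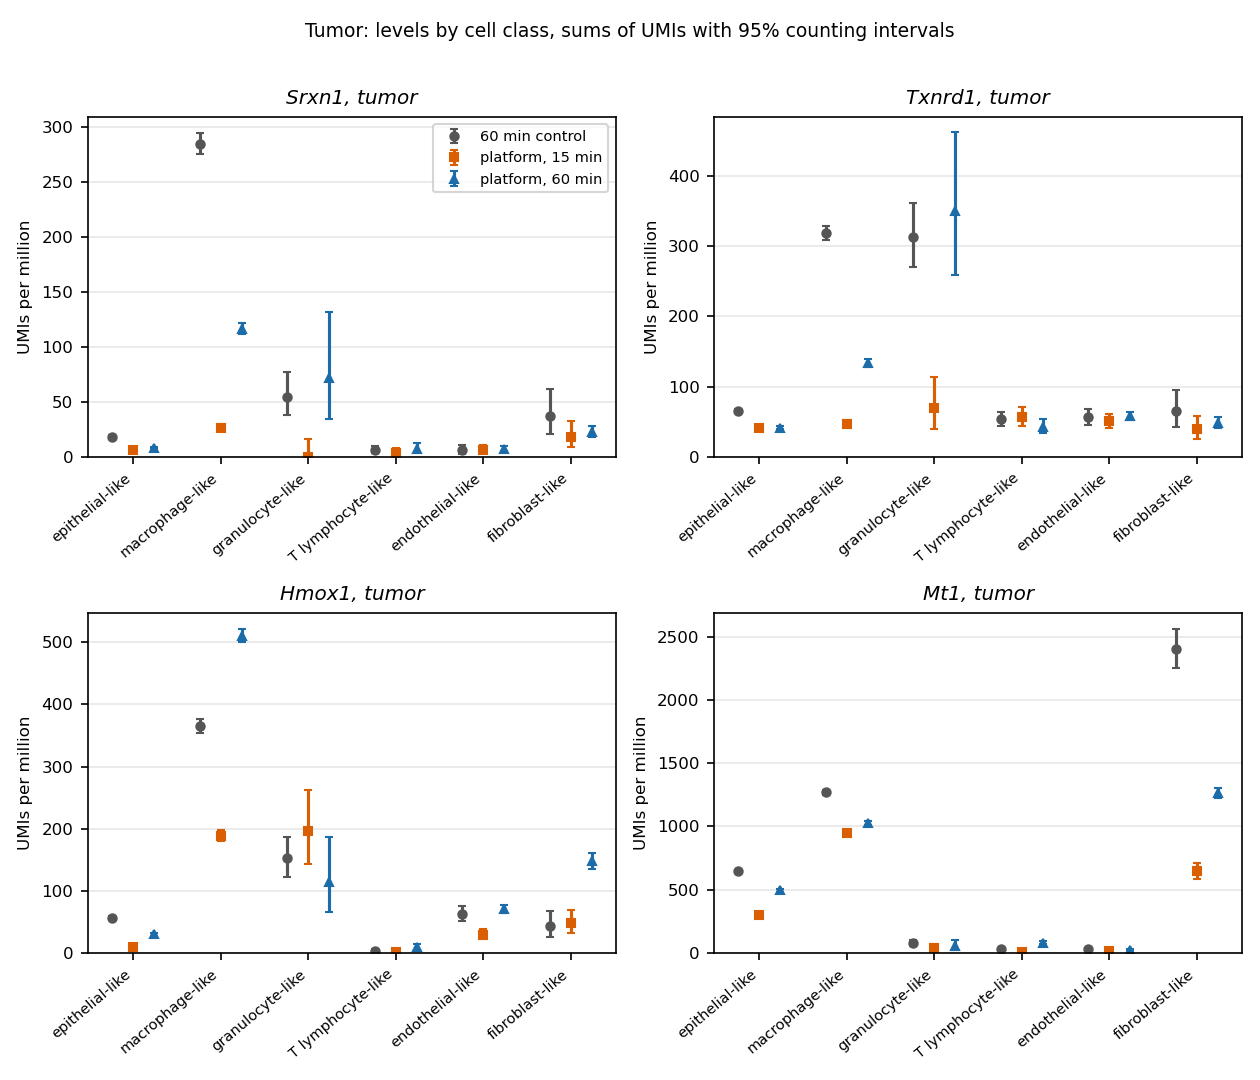
Levels of Srxn1, Txnrd1, Hmox1 and Mt1 in CPM in tumor cell classes (linear scale), with 95% counting intervals; symbols are the control (circle), platform 15 min (square) and platform 60 min (triangle). Srxn1 and Txnrd1 of macrophage-like cells are highest in the control and lowest at 15 min, and Mt1 is highest in fibroblast-like cells of the control.

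Srxn1 and Txnrd1 differed less in the kidney over all cells. Srxn1 was at 27.2, 21.2 and 16.6, and Txnrd1 at 85.0, 68.6 and 62.9, with both platform libraries below the control by less than 2-fold. Macrophage-like cells again had the larger difference for Srxn1, at 39.2, 6.05 and 10.1, though only 4 UMIs stood behind the 15 min value. The ratios were 6.49-fold lower at 15 min (2.50 to 24.01) and 3.90-fold lower at 60 min (3.03 to 5.05). Txnrd1 in these cells was 3.82-fold lower at 15 min (2.21 to 7.23). In proximal tubule-like cells Srxn1 was at 27.4, 22.1 and 22.8, differences of less than 1.5-fold. At 60 min Txnrd1 was 2.84-fold lower in dendritic cell-like cells (2.03 to 3.99) and Srxn1 2.15-fold lower in distal convoluted tubule-like cells (23 against 29 UMIs), and at 15 min Txnrd1 was higher in the latter on 11 against 10 UMIs.

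Gclm, the modifier subunit of the enzyme that makes glutathione's first intermediate, and Nqo1, the quinone reductase, had their highest levels in different classes. Among classes of at least 20 cells, kidney Gclm was highest in proximal tubule-like cells, tumor Gclm in T lymphocyte-like cells and tumor Nqo1 in epithelial-like cells, and kidney Nqo1 was highest in tubule classes, with 41.7 in distal convoluted tubule-like cells of the control from 14 UMIs. Gclm in the kidney was at 363.4, 475.0 and 212.5 over all cells, in an order that followed the share of proximal tubule-like cells. Within those cells it was at 587.7, 511.2 and 482.2, and Gclm in the other classes of at least 20 cells was at most 129.3, in intercalated-like cells of the control. Nqo1 was at 15.5, 21.96 and 7.85 over all kidney cells and at 23.5, 23.6 and 15.7 in proximal tubule-like cells. At 60 min it was 1.98-fold lower over all kidney cells, just inside 2-fold, and 2.01-fold lower without cells of shared barcodes. Levels differed along the tubule in every library, with Gclm at 344.9, 315.3 and 310.0 in cells gated as the first segment S1 and 704.4, 644.7 and 734.8 in those gated as the last segment S3. Nqo1 had the same order, 12.4, 13.5 and 8.96 in S1 and 29.9, 32.3 and 24.8 in S3. The numbers of S1 and S3 cells, given below with Gpx3, differed between libraries, and their part in the proximal tubule-like levels was not tested. In the thick ascending limb-like and distal convoluted tubule-like cells, Nqo1 was lower at 60 min on 11 against 11 and 14 against 7 UMIs. In the tumor Nqo1 was at 36.4, 45.0 and 46.4 in epithelial-like cells, and the endothelial-like call at 60 min came from 3 against 30 UMIs, with an interval of 0.837 to 13.8 that spans 1. Tumor Gclm was at 45.3, 47.6 and 36.4 over all cells, at 93.6, 135.9 and 78.9 in T lymphocyte-like cells and at 41.4, 47.3 and 36.5 in epithelial-like cells, with no call at 15 min and a call of higher at 60 min in fibroblast-like cells, on 6 against 110 UMIs.

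Of the glutathione peroxidases, Gpx1 and Gpx4 passed 2-fold in no compared class, and Gpx3 did in 4 pairs of class and comparison. Gpx1, the cytosolic form, was at 3759, 3139 and 3056 CPM in proximal tubule-like cells, and Gpx4, which reduces lipid peroxides in membranes, at 2430, 2092 and 2078. Both were highest in the control there, by less than 1.5-fold. Over all kidney cells Gpx1 was at 2443, 2926 and 1451, so the control stood between the platform libraries, and with the class mix of the control the 15 min ratio was 0.859. In the tumor Gpx1 was at 570.7, 492.8 and 535.5 and Gpx4 at 635.1, 629.2 and 508.0.

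Among classes of at least 20 cells, Gpx3, the secreted form, was highest in proximal tubule-like cells in the kidney and in fibroblast-like cells in the tumor. Over all kidney cells it was at 3556, 6793 and 2963, and in proximal tubule-like cells at 5889, 7337 and 7251. The platform libraries both lay above the control within that class, by less than 1.5-fold. S1 cells had 10074, 12546 and 10545, and S3 cells had 2638, 3454 and 2635, an order along the tubule opposite to that of Gclm and Nqo1. Within each segment the 60 min level thus lay near that of the control. The S1 gate held 1030 (control), 2970 (15 min) and 1564 (60 min) cells, and the S3 gate held 616, 2391 and 563. The segment mix therefore differed between libraries, and its part in the levels of the whole class was not tested. Of the other kidney classes of at least 20 cells, intercalated-like cells had the highest Gpx3 levels, 1407 in the control from 359 UMIs and 1263 at 60 min. The remaining kidney classes also showed Gpx3, but other tubule transcripts (Kap, Miox and Fxyd2) were present as well. These summed to between 347.8 and 2712 CPM in endothelial-like and leukocyte classes, and to 9392 (control) and 7937 (60 min) in intercalated-like cells. Gpx3 per UMI of those transcripts was 0.101, 0.0890 and 0.145 in proximal tubule-like cells. It was between 0.108 and 0.379 in the endothelial-like and leukocyte classes, above the tubule's ratio in the same library. In intercalated-like cells it was 0.150 (control) and 0.159 (60 min), and in thick ascending limb-like cells 0.0158 and 0.0326. The calls for Gpx3 in B lymphocyte-like cells at 15 min (252.3 against 590.7) and in NK cell-like cells at 60 min (109.2 against 237.3) stand beside these transcripts, and the part of free RNA in them was not tested.

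In the tumor Gpx3 was at 13.9, 17.7 and 67.9 over all cells, and 4.89-fold higher at 60 min (4.51 to 5.31). Fibroblast-like cells had 996.7, 859.5 and 868.9, below 1.5-fold apart, and numbered 40, 72 and 304. Pericyte-like cells had 464.8 at 15 min and 490.2 at 60 min. Epithelial-like cells had 2.20, 4.27 and 4.77, which is 2.17-fold higher at 60 min (1.60 to 2.96). Of the 118 UMIs at 60 min, 1 cell held 27. Without the highest cell of each library the levels were 1.94, 3.03 and 3.68, and the 60 min difference was below 2-fold. The higher level over all tumor cells at 60 min thus stood beside more fibroblast-like cells, and no class with a high Gpx3 level differed by 2-fold. Macrophage-like cells had 10.9, 14.1 and 33.8, a 3.11-fold higher level at 60 min (2.56 to 3.79), and the share of this that is free RNA was not tested.

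The other genes of the pathway were counted over all kept cells. Of 9 regulators, 4 were 2-fold or more lower over all kidney cells at 15 min and 0 higher, and 4 were lower in the tumor and 0 higher, and at 60 min 0 passed 2-fold in either tissue. Of all genes kept, 28.5% were lower in the kidney at 15 min and 3.80% in the tumor, so the same count stands against a much larger background in the kidney. In the kidney these were Nfe2l2 itself, from 137.0 to 39.3 CPM, the repressor Bach1, from 52.1 to 11.3, and the small Maf genes Maff, from 23.9 to 0.863, and Mafk, from 15.8 to 4.28. In the tumor they were Sqstm1, the p62 protein that binds Keap1, from 265.2 to 99.6, Maff from 128.3 to 19.8, Bach1 from 63.8 to 30.7 and Mafk from 47.8 to 16.5. Maff is also known as a gene induced by stress. In kidney macrophage-like cells 5 of 9 regulators were lower at 15 min (7.44% of all genes of the class), among them Maff with 472 against 1 UMIs. In proximal tubule-like cells, which made up 86.5% of that library, 1 of 9 was lower (5.12% of all genes of the class). In T lymphocyte-like cells 0 of 8 kept were lower (5.98%). In tumor macrophage-like cells 4 were lower and 1 higher, beside 4.69% and 11.1% of all genes of the class. In tumor epithelial-like cells 3 were lower (3.28% of all genes of the class), and in tumor T lymphocyte-like cells 0 of 9 (4.04%).

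The counts of the next lists stand beside these shares of all genes kept. At 15 min 28.5% were lower and 2.23% higher in the kidney, and 3.80% and 3.57% in the tumor. At 60 min 1.18% were lower and 10.5% higher in the kidney, and 2.72% and 9.09% in the tumor. Of 20 other Nrf2 targets, 3 were lower in the kidney at 15 min (Ephx1, Abcc1 and Slc7a11), a smaller share than that of all genes. In the tumor at 15 min 2 were lower, the growth inhibitor Osgin1, from 26.6 to 8.73, and the cystine carrier Slc7a11, from 23.2 to 4.87. None of the 20 was higher at 15 min in either tissue. At 60 min 1 was higher in the kidney, Ephx1, and 1 lower in the tumor, Osgin1. Of 21 other antioxidant enzymes, the kidney at 15 min had 1 higher (Sod3, 2.38-fold) and 2 lower (Selenow and Gpx8), and the tumor at 15 min had 0 in either direction. At 60 min 2 were higher in the kidney (Gpx8 and Gpx7) and 4 in the tumor (Selenop, Gpx8, Gpx7 and Sod3), with 0 lower. The metal handling list had 1 gene past 2-fold in each comparison, of 7 kept in the kidney and 6 in the tumor. They were Mt3, which had under 60 UMIs in any kidney library, the zinc exporter Slc30a1 2.42-fold lower in the tumor at 15 min and the iron exporter Slc40a1 2.58-fold higher in the tumor at 60 min. Of 5 glucocorticoid-induced genes, 4 were lower in the kidney at 15 min (Tsc22d3, Sgk1, Per1 and Zbtb16) and 1, Sgk1, in the tumor, with 0 at 60 min. Within kidney classes the 15 min count was 0 of 5 lower in proximal tubule-like, 1 of 5 in endothelial-like and 1 of 5 in macrophage-like cells. Among kept genes it was 2 of 4 in B lymphocyte-like, 1 of 4 in T lymphocyte-like, 1 of 1 in thick ascending limb-like and 0 of 2 in NK cell-like cells. In these classes 3.61% to 7.44% of all genes kept were lower. Most of the count over all cells was thus not seen within the classes where all 5 genes were kept. The list medians on the log2 scale at 15 min were -0.99 in kidney and -0.71 in tumor for the regulators, -0.02 and -0.05 for the other targets and 0.21 and 0.08 for the other enzymes, beside medians of -0.42 and 0.21 over all genes.

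The genes whose levels moved most like these across classes and libraries were found over 24 kidney and 19 tumor sums of at least 50 cells, which share libraries and differ in depth. Mt1 and Mt2 were among each other's 3 nearest genes in both tissues, with Pearson's r of 0.883 in the kidney and 0.930 in the tumor. Kidney Gpx3 was nearest to Slc34a1 (r of 0.982), Miox and Slc22a6, which are proximal tubule genes, while tumor Gpx3 was nearest to Fgf11, B3galnt1 and Ttyh2. Tumor Srxn1 was nearest to Sqstm1 (0.889), Ccl9 and Vps18, and tumor Txnrd1 to Cxcl3 (0.931), Mapkapk2 and Etf1. Srxn1 and Txnrd1 had an r of 0.709 with each other. Tumor Hmox1 was nearest to Rcan1 (0.912), Ctsb and Cdkn1a, and kidney Hmox1 to Dab2 (0.864), Tctex1d2 and Kcnj2. The kidney neighbours of Gclm were Txndc17 (0.958), Macrod2 and Qdpr, and those of Nqo1 were Slc6a8 (0.934), Chchd2 and Cox7a2. For the other kidney genes they were Arhgap6 (0.895) and Lpin2 beside Mt2 for Mt1, Chka and Sphk1 beside Mt1 for Mt2, Ptms (0.921), Tcp11l1 and Il11ra1 for Srxn1, and 2310009B15Rik (0.845), Slco3a1 and Id2 for Txnrd1. Kidney Gpx1 was nearest to Gatm (0.943), Ftl1 and Khk, and kidney Gpx4 to Gatad1 (0.957), Commd3 and Ech1. In the tumor, Rab7b and Plxdc2 came next for Mt1, and Olfml3 and Col27a1 for Mt2. Tumor Nqo1 was nearest to Plb1 (0.938), Foxi1 and Crabp2, Gclm to Ctsw (0.893), Atf7ip and Cab39, Gpx1 to 5031439G07Rik (0.913), Slc8b1 and Atp6v0b, and Gpx4 to Ephb6 (0.926), Eya2 and Fmc1.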

How the data were processed

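UMI counts per gene and cell, deposited by the authors from Cell Ranger 3.1.0 on mm10, were read for 6 droplet libraries, 1 per tissue and condition. The authors had joined the libraries of a tissue with the aggr step, which thins reads so that depth is alike, and the counts are from before their filters on cells. Cells were kept with at least 200 genes, at most 3000 genes and 50% mitochondrial UMIs in the kidney, and at most 4000 genes and 25% in the tumor, as in the study's methods. Kept cells had median UMI counts of 4583 to 9476. Doublets were handled only by the upper limit on genes and by the gap between class scores.

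The class score of a cell was the mean over 8 markers of log2(1 + UMIs per 10000). A cell joined the top class if at least 3 markers were detected and the score led the next by 0.5. UMIs were summed per library and class and given per 1000000 UMIs (CPM) with exact Poisson intervals at 95%, and ratios with exact conditional intervals. A gene was kept with 20 UMIs in 2 libraries together and called past 2-fold. A sum of 0 was set against a floor of 3 UMIs in that library.

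All 10 genes are named. Of the pathway lists, genes past 2-fold over all kept cells are named, at most 4 with the most UMIs per list and comparison. For each gene and tissue, the 3 genes of highest Pearson correlation of log2(CPM + 1) over class sums of at least 50 cells were found, among genes with at least 100 UMIs. The genes and lists were chosen with earlier results of these data known. Alternatives were other scalings, cell weights, filters, thinning to 1000 UMIs, folds and gates. Holding the class mix fixed, leaving out cells of shared barcodes and leaving out the highest cell were added after the data had been seen. Scripts were tested on simulated data. Promoter windows came from a RefSeq table (GRCm38.p6), in which 9 of the 10 genes matched and Hmox1 is named only. Python 3.11.15, numpy 2.4.6, scipy 1.17.1 and pandas 2.3.3 were used.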

Additional observations from a re-analysis of the deposited data

Results flagged for a closer look

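Some genes stood above the control in 1 tissue and below it in the other at the same interval of the platform, with the counting intervals of both ratios off 1. The difference between the tissues was not tested in any of these cases, since each tissue had 1 library per condition. At 15 min over all kept cells, the platform over control ratio of Gpx1 was 1.20 in the kidney and 0.864 in the tumor. With the class mix of the control the ratios were 0.859 and 0.921, both below 1. At 60 min over all kept cells, the ratio of Gpx3 was 0.833 in the kidney and 4.89 in the tumor, and with the class mix of the control 1.23 and 1.49, both above 1. That of Mt1 was 1.13 and 0.834, and with that mix 1.05 and 0.778. The mix held the classes fixed but not the segments within the proximal tubule-like class. At 60 min in endothelial-like cells, Mt2 had a ratio of 0.277 in the kidney and 2.25 in the tumor, and Gpx1 had 0.810 and 1.26. The tumor Mt2 ratio had an interval of 1.20 to 4.66, from 11 control and 92 platform UMIs, of which 1 cell held 23. At 60 min in macrophage-like cells, Mt1 had 1.14 in the kidney and 0.806 in the tumor. At 60 min in T lymphocyte-like cells, Gpx4 had 1.16 (1.0005 to 1.35, barely off 1) and 0.752 (0.686 to 0.825).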

How the results depend on the processing

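No paired analysis was possible because each tissue and condition had 1 library. For the counts of genes past 2-fold, higher and lower together, 76 of 92 alternative values were within 1.5 times the main count and 16 were not. Whether the balance of higher and lower calls changed was not compared. In the kidney at 15 min, the 14 gene and class pairs became 24 with at least 1 UMI and 9 after thinning. In the kidney at 60 min, the 18 pairs became 31 at 1.5-fold, 28 with at least 1 UMI, 5 with at least 100 UMIs, 7 after thinning, 11 without upper limits on cells and 11 with the stricter gate. In the tumor at 60 min, the 13 pairs became 25 at 1.5-fold, 20 with at least 1 UMI and 8 after thinning. The count of 0 genes over all kidney cells at 60 min became 5 at 1.5-fold, 1 after thinning, 2 after division by the median ratio and 1 without cells of shared barcodes, and the count of 1 in the tumor at 60 min became 3 at 1.5-fold. The cause was not tested beyond what each threshold itself does. For single genes, 282 values moved by less than their counting intervals and 158 by more, with no called one reversed. The 15 pairs of the tumor at 15 min stayed within 1.5 times under every alternative run. Over all kept cells at 15 min, the kidney ratios ranged over the alternatives from 2.10-fold to 7.97-fold lower for Mt1, 3.56-fold to 9.60-fold for Mt2 and 2.84-fold to 4.53-fold for Hmox1. In the tumor they ranged from 6.72-fold to 9.96-fold lower for Srxn1, 2.39-fold to 3.50-fold for Txnrd1, 2.72-fold to 3.62-fold for Mt2 and 2.02-fold to 3.53-fold for Hmox1. Depth limits the smaller classes, where a call can rest on as few as 20 UMIs.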
